A study of Mus musculus with 4 samples.

Results

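The sites described here are single adenosines that were read as almost fully methylated in wild-type organoids. They did not keep a high listed level in both libraries of organoids without Mettl3. A site was taken when both wild-type lists held it with at least 0.9 of its reads unconverted and a coverage of at least 50 reads in each. It was left out when both Mettl3 knockout (KO) lists gave it a level of at least 0.5. The level is the number of unconverted reads over the coverage, and the coverage counts reads that show A or G. The wild-type part of the rule gave 445 near-complete sites, of which 383 were members and 62 were retained at 0.5 or above in both KO lists. The members were 2.39% of the 16024 sites that both wild-type lists held at that coverage, and 0.0434% of the 881997 sites in any list. The members were chosen by the levels and coverages of both genotypes, so the fall of the level itself is a description and was not tested.

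The samples were day 4 retinal organoids, eye-forming tissue grown in culture from mouse stem cells, in 4 libraries of poly(A) RNA. One group was the wild-type line Rx:GFP (2 libraries), which carries a green reporter of the eye field gene Rax, and the other a Mettl3 KO line (2 libraries). The KO was made in the Rx:GFP line, per the labels. The growth protocol also names a doxycycline-inducible HA-tagged METTL3, read here as carried by the KO line, although the wording does not settle which line holds it. No treatment is recorded for any library, and both lines grew with 0.1 µM AGN. The labels give all 4 libraries 1 shared batch and do not say whether the replicates were separate differentiations or whether the KO line is 1 clone, so p-values below measure the spread between these libraries only.

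N6-methyladenosine (m6A) is the most common internal modification of mRNA. METTL3, paired with METTL14 and helped by adaptor proteins such as RBM15 and WTAP, writes it mostly in the last exon and around the stop codon, and YTH proteins read it, often to shorten the life of the mRNA. GLORI measures it by deaminating unmethylated adenosine with glyoxal and nitrite: a deaminated base is read as G and an m6A is still read as A, so the level estimates the methylated share of the molecules. A site near a level of 1 is read as one where nearly every molecule was methylated. The 62 retained sites, however, also kept a level of at least 0.5 in both KO lists.

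Wild-type lists had 227298 and 288516 sites and KO lists 230299 and 215850, at a median coverage of 38 to 41 reads. Each list began at a coverage of 15 reads, 5 unconverted reads and a level of 0.1, so a site absent from a list may have been converted or too thinly covered. The lists also carry p-values, and whether a limit on these left sites out as well was not examined. Mettl3 gene coverage showed no detected fall in the KO (log2 change 0.29 ± 0.18, SE; limma adjusted p 0.348), and reads from an inducible copy cannot be told apart from those of the gene. The eye field label was checked on defining genes: Rax had 20 and 35 sites in the wild-type lists and none in the KO lists, and Six3 had 54 and 56 against 14 and 15. Of the markers of other cells, 3 lists had summed coverages that did not overlap between genotypes. Non-overlap was common at large: of all 8294 genes tested, 24.7% did not overlap as higher in the KO and 29.4% as lower. For neural tube and midbrain the sum, in multiples of the library's median gene and over the 3 of 10 genes tested, was 2.05 to 2.41 in the wild type and 3.62 to 3.86 in the KO. Of these 3, Wnt1 alone was called (log2 change 2.16 ± 0.21, SE; limma adjusted p 0.000254), and Pax3, with no listed site in either wild-type library, had 36 and 12 in the KO. For surface ectoderm and neural crest (3 of 10 tested) the sum was 2.57 to 2.78 against 2.33 to 2.51, with Krt18 called lower (-0.74, limma adjusted p 0.0412). For neurons (3 of 7) it was 5.86 to 6.00 against 4.85 to 5.31, with Stmn2 called lower (-0.71, limma adjusted p 0.0319). For mesoderm and endoderm (1 of 11) the ranges overlapped, at 0.457 to 0.764 and 0.478 to 0.519. In a given library 1 to 3 markers of the neurons' list, and 4 to 10 of each other list, had no site. The part of these cells in the results below was not tested.

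Member sites sat close to the top of the scale in the wild type. The level ran from 0.901 to 1 with a median of 0.980 in wild-type library 1, and from 0.9 to 1 with a median of 0.971 in library 2. At 49 members every read was unconverted in both libraries. The levels of the wild-type libraries differed by a median of 0.0165 at a member site, against 0.0751 at mid-level sites, whose level was 0.3 to below 0.9 in both. The coverage was at least 100 reads in both libraries at 200 members and at least 1000 reads at 11.

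In the KO most members were not listed, as was the case for wild-type sites at large. KO library 1 held 75 of the 383 and KO library 2 held 70. In total 256 members were in neither KO list (66.8%; Wilson 95% interval 62.0% to 71.4%, which like all intervals here covers counting error only), 109 were in 1 list and 18 in both. The share in neither list was 79.2% over all shared sites of that coverage and 87.0% at mid-level sites, so absence is no trait of the members. Where a member was listed, the median KO level was 0.174 in library 1 and 0.167 in library 2. The highest KO level was below 0.3 at 110 of the 127 listed members, 0.3 to below 0.5 at 11, and 0.5 or above at 6. The label of a collapse thus rests on a listed KO level below 0.5 in the first 2 of these groups. For the 256 members in neither list it rests on absence alone, with no KO level. Absence also occurs between libraries of 1 genotype. Of the 888 near-complete sites of wild-type library 1 described below, 67.2% were listed in wild-type library 2. The 6 members at 0.5 or above are described separately below.

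**Figure D1:**
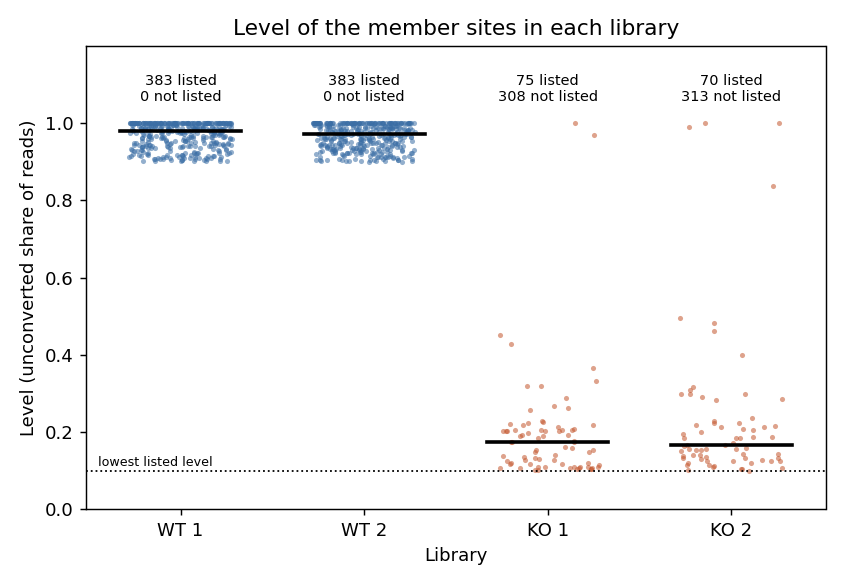
Level (unconverted share of reads) of the member sites in each of the 4 libraries, with 1 point per listed site, a bar at the median of the listed sites and a dotted line at the lowest level the lists hold. All 383 sites lie at or above 0.9 in both wild-type libraries, while the 75 and 70 that the KO libraries list lie mostly below 0.3, with medians of 0.174 and 0.167.

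Whether an absent site had been covered was judged from the coverage expected in the KO. This is the wild-type coverage of the site scaled by the KO to wild-type ratio of its gene's coverage, and the lower of the estimates from the wild-type libraries was kept. It could be given for 326 members, since the gene needs a single value in every library. At members that a KO list did hold, the observed coverage was 1.06 times the expected in KO library 1 (median of 67 sites; 5th to 95th percentile 0.554 to 2.26) and 1.048 times in library 2 (median of 59; 0.393 to 2.28). These ratios come only from members that passed the lists' limits, so they cannot speak for the absent members. Of 216 absent members with an estimate, 173 were expected to have at least 50 reads in both KO libraries and 42 at least 200. At 50 reads and above the lists reached down to a level of 0.100, against 0.263 at 15 to 20 reads. Absent and listed members had like expected coverage, with medians of 114 and 94.5 reads in the KO libraries for the absent and 114 and 88.6 for the listed.

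**Figure D2:**
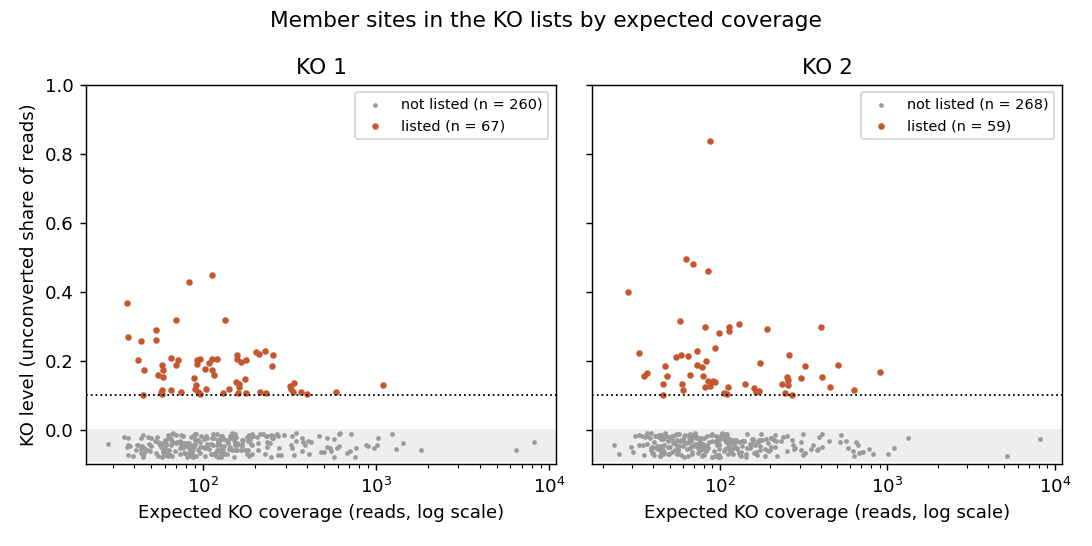
KO level of each member site against the coverage expected for it in that KO library (reads, log axis), with listed sites as orange points and absent sites in the grey band under 0, where height has no meaning. The 173 absent members with at least 50 expected reads in both libraries, among them Calr and Hnrnpa0 at the far right, overlap the listed members along the whole axis up to about the coverage of Tmem132a.

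The 8 absent members with the most expected coverage were in Calr, Hnrnpa0, Sox3, Eef2, Eif3b, Apex1, Puf60 and Dph3. Calr encodes calreticulin, a chaperone of the endoplasmic reticulum. Its site at position 85569182 of chromosome 8, minus strand, in a gene placed at 85568479 to 85573563 by the lists, had levels of 0.961 and 0.948 at 12980 and 16854 reads. Neither KO list held it, although 8261 and 8200 reads were expected there. In Hnrnpa0, which encodes an RNA-binding protein, position 58275070 of chromosome 13, minus strand, had 0.996 and 0.987 at 4674 and 6842 reads, with 6449 and 5177 expected in the KO. In Sox3, a transcription factor gene of neural progenitors, position 59935308 of chromosome X, minus strand, had 0.972 and 0.960 at 1287 and 1763 reads, with 1436 and 1322 expected. A level of 0.1 at these 3 sites would have been over 100 unconverted reads in each KO library at the expected coverage, and the lists hold no entry.

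The other 5 of these sites were likewise in neither KO list. Eef2, the elongation factor that moves the ribosome along mRNA, had 0.902 and 0.907 at position 81018094 of chromosome 10, at 1464 and 1928 reads. Eif3b, a subunit of a translation initiation factor, had 0.949 and 0.943 at position 140428947 of chromosome 5, at 168 bases from the gene's 3′ end. Puf60, a splicing factor, had 0.945 and 0.953 at position 75942157 of chromosome 15, at 126 bases from that end. Apex1, a DNA repair endonuclease, had 0.983 and 0.987 at position 51164275 of chromosome 14. Dph3, of diphthamide synthesis, had 0.957 and 0.959 at position 31804908 of the same chromosome. At these 5 sites the lower of the expected KO coverages was 710 to 1098 reads. Of the 11 members with at least 1000 reads in both wild-type libraries, chosen here after their values were seen, H2ax was the 1 that a KO list held, with a level of 0.124 at 668 reads in KO library 2.

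For 18 members both KO lists give a level, which the lists' limit keeps at 0.1 or above, so these values do not speak for the absent members. Their mean KO level ran from 0.115 to 0.383 with a median of 0.154. Across these 18 sites, which share the same libraries and were chosen for being listed, Pearson's r between the KO levels was 0.749, and without the Lpar6 site it was 0.470 over 17. The deepest was in Tmem132a, which encodes a membrane protein, at position 10835286 of chromosome 19. It went from 0.9901 and 0.970 at 805 and 824 reads to 0.129 and 0.167 at 1755 and 1571 reads, with Wilson intervals of 0.114 to 0.146 and 0.150 to 0.187. Fzd2, a Wnt receptor, kept 0.110 and 0.125. Slc16a1, a lactate transporter, kept 0.136 and 0.133 at position 104560503. Ppp2r2a, a regulatory subunit of protein phosphatase 2A, kept 0.117 and 0.185, and Adgra3, an adhesion receptor, kept 0.228 and 0.195.

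The 5 highest mean KO levels among those 18 were in Lpar6, Nat8l, Fhip1b, Vegfa and Poglut1, and the highest rested on few reads. Lpar6, a receptor for lysophosphatidic acid, had 0.367 and 0.4 at position 73476416 of chromosome 14, from 30 and 15 reads, after 0.991 and 0.986 in the wild type. The Wilson intervals were 0.219 to 0.545 and 0.198 to 0.643. Nat8l, the enzyme that makes N-acetylaspartate, had 0.203 and 0.292, from 177 and 120 reads, at position 34159014 of chromosome 5, where every wild-type read was unconverted. Vegfa, the vascular growth factor gene, had 0.268 and 0.164 at 56 and 61 reads (position 46329320 of chromosome 17). Fhip1b had 0.223 and 0.209, and 1 Poglut1 site had 0.203 and 0.222. All of these KO levels lay far below both wild-type levels of the same site. By the rule at least 1 KO level of each site had to lie below 0.5, and so below both wild-type levels.

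Some members kept an intermediate level in 1 KO library and were absent from the other. They were chosen here after their values were seen, apart from Zic2. Zic2, a transcription factor gene of the neural plate, stood at 1 and 0.970 in wild-type organoids at position 122713291 of chromosome 14, and at 0.450 from 120 reads in KO library 1 (interval 0.364 to 0.539). KO library 2 did not list it, where 88.2 reads were expected. Tet3, which oxidises 5-methylcytosine in DNA, had 0.482 at 110 reads in KO library 2 (0.391 to 0.574) and no entry in library 1, where 65.4 reads were expected. Fignl1 (0.427, library 1), Trmt10c (0.462, library 2) and Zfp57 (0.496, library 2) showed the same pattern. Each of these KO levels lies below both wild-type levels of its site, which the rule and the choice of an intermediate level fix in advance.

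The 6 members at 0.5 or above in 1 KO list did not collapse there. Of these, 5 could not be placed in a gene, and their KO levels were 0.968 to 1, as high as in the wild type. They are members because the other KO list lacks them. The remaining site is in Mat2a, chosen here after its values were seen. Mat2a encodes the enzyme that makes S-adenosylmethionine, the methyl donor of METTL3, and hairpins of its mRNA are known substrates of another m6A methyltransferase, METTL16. The member, at position 72410044 of chromosome 6, minus strand, 262 bases from the gene's 3′ end, had 0.968 and 0.960 at 155 and 224 reads. KO library 2 gave 0.836 at 110 reads (interval 0.756 to 0.894), and library 1 had no entry where 128 reads were expected.

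Of the other shared Mat2a sites, 4 stayed high in both KO libraries. Position 72410270 had 0.666 and 0.765 in the wild-type libraries against 0.863 and 0.966 in the KO. Position 72411233 had 0.836 and 0.8997, just under the limit, against 0.931 and 0.945. Positions 72409936 and 72410155 had wild-type levels of 0.548 to 0.720 and KO levels of 0.583 to 0.717. These 4 sites had 324 to 1569 reads in each KO library. The rest of the shared Mat2a sites were low in the wild type as well. Their levels were 0.108 to 0.177 there and 0.12 to 0.237 in the KO where listed.

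How often a site was listed again in the KO did not fall steadily with the wild-type level. This was read over sites that both wild-type lists held with at least 50 reads, that lay in genes and had no chromosome-wide coverage value, and that were not at 0.5 or above in both KO lists. From a mean wild-type level of 0.1 to 0.2, 23.2% of 5754 sites were in at least 1 KO list, and from 0.5 to 0.6 it was 8.68% of 645 (6.75% to 11.1%). From 0.9 to 1 it was 30.5% of 465 (26.5% to 34.9%). Among sites with at least 100 expected reads in both KO libraries, a limit added after the data were seen, the shares were 28.1%, 8.98% and 29.0%. Within the members placed in genes the share was 27.7% of 94 at a mean level of 0.90 to 0.95, 32.9% of 161 up to 0.99, and 41.5% of 94 above that, with overlapping intervals. The KO level where listed was low throughout, with a median of 0.163 at wild-type levels of 0.9 to 1 and 0.145 at 0.5 to 0.6. No test was made, since sites share genes and libraries and the levels entered the rule.

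**Figure D3:**
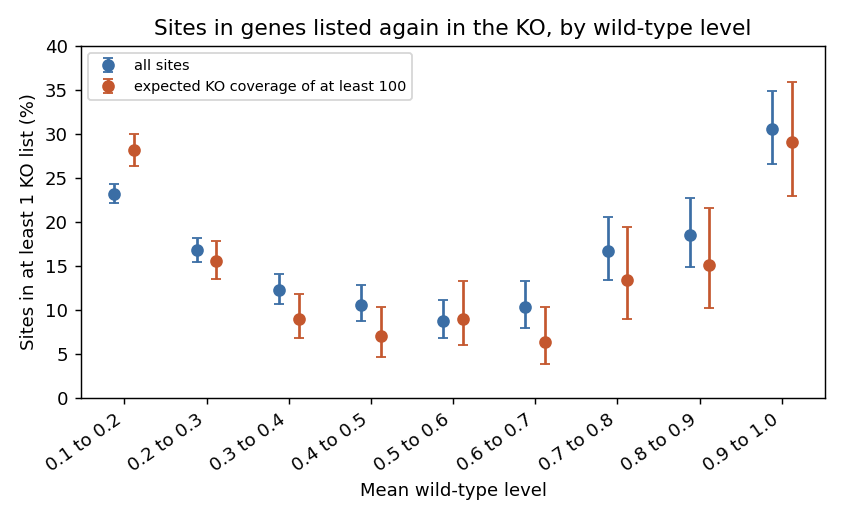
Share of sites in genes that at least 1 KO list held (%), by mean wild-type level in bins of 0.1, for all such sites (blue) and those with at least 100 expected KO reads (orange), with Wilson 95% bars. Both series are lowest between levels of 0.4 and 0.7, at 6.33% to 10.6%, and reach 30.5% and 29.0% in the top bin, which holds most of the members.

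Choosing sites in 1 library and reading them in the other 3 removes the joint choice. Near-complete sites of wild-type library 1, with at least 50 reads, in genes and without a chromosome-wide coverage value in that library, numbered 888. Of these, 66.0% were at 0.5 or above in wild-type library 2 (interval 62.8% to 69.0%). The KO libraries had 2.25% (1.46% to 3.45%) and 2.14% (1.37% to 3.32%) of them at that level. In these shares an absent site counts as not at that level. Of the 888, 597 had a level in wild-type library 2, 163 in KO library 1 and 148 in KO library 2. The low KO shares thus rest mostly on absence, with no KO level. The contrast was smaller in the other 275 near-complete sites of that library, unplaced or with such a value. Of those, 45.1% were at that level in wild-type library 2 and 24.4% in each KO library. Starting from the 1253 sites of wild-type library 2 within the same limits, the share was 56.8% in library 1 and 1.44% in each KO library. For its other 508 near-complete sites it was 26.6% in library 1, and 11.6% and 11.4% in the KO libraries. The opposite look gave few near-complete sites within these limits: KO library 1 held 58 and KO library 2 held 128. Of these, 27.6% and 14.8% were at 0.5 or above in the other KO library. The wild-type libraries had 24.1% and 31.0% of the former and 13.3% each of the latter at that level.

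The retained near-complete sites were of another kind by position. Only 19 of the 62 (30.6%) could be placed in a gene, against 355 of 383 members (92.7%). The gene coverage deposited with 47 of them (75.8%) was a value shared along a whole chromosome, against 16 members (4.18%). No source says what that value stands for, and some sites inside genes carry it. Members were mostly in protein-coding genes, 344 in all, with 4 in pseudogenes, 2 in long noncoding RNA genes and 5 in genes with no type in the gene table. How reads that match a pseudogene and its parent gene were assigned is not given in the sources used here, so the members in pseudogenes are uncertain.

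Along the gene, members lay toward the 3′ end, as the other shared sites did. Distances count genomic bases to the gene's end, introns included. The median distance to the 3′ end was 1497 bases (quartiles 657 to 3108.5), against 1238 for mid-level sites and 1589 for all shared sites of that coverage. Of the 355 placed members 129 (36.3%) were within 1000 bases of the 3′ end, against 43.4% and 38.2%, and 181 (51.0%) lay in the last 10% of the gene, against 62.1% and 53.9%. The members were few at the start of genes: 2 lay within 300 bases of it, in Gm8134 and Lsr (0.563%, against 1.52% and 4.04%). The nearest to a 3′ end was in Supt4a, at 46 bases, and the farthest was in Brip1os, a noncoding RNA, at 97129 bases. The deposited intron mark was on 48.8% of members and 45.9% of all shared sites.

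**Figure D4:**
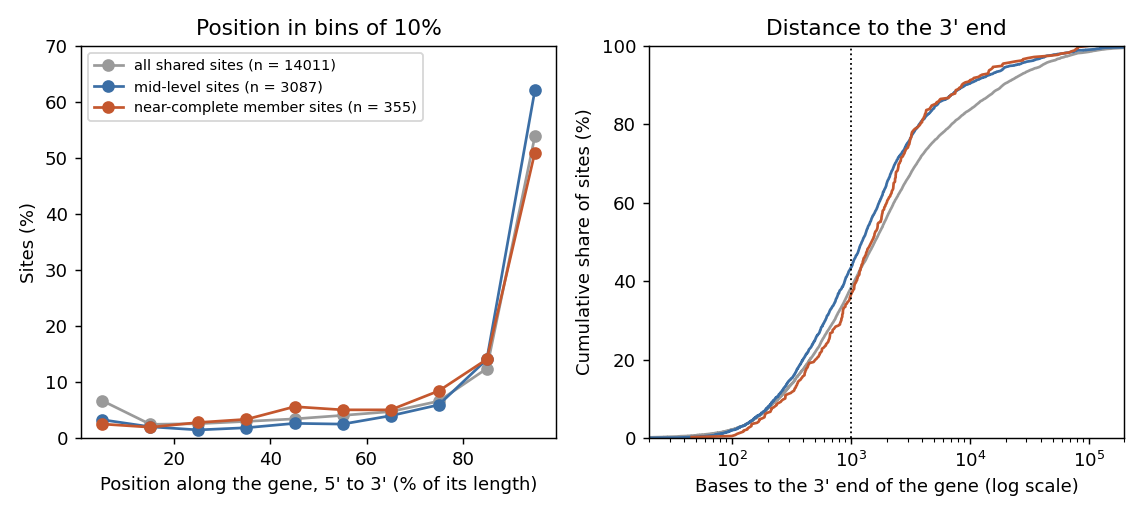
Left, share of sites (%) in bins of 10% of the gene from 5′ to 3′; right, cumulative share (%) against the distance to the 3′ end (bases, log axis, dotted line at 1000 bases), for the 355 placed members, 3087 mid-level sites and 14011 shared sites. The last bin holds 51.0% of members, 62.1% of mid-level sites and 53.9% of shared sites, and the shared sites have a further, smaller rise in the first bin.

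Members were spread thinly over 333 host genes, of which 313 held 1, 18 held 2 and 2 held 3. Host genes were somewhat shorter than the genes of the other sites, with a median length of 17912 bases against 22382.5 for all shared sites, and 52 of them (15.6%) were under 5000 bases, against 13.9%. In most hosts the member was 1 of several m6A sites: the median host had 5 sites shared by the wild-type lists, and in 22 hosts the members were the only ones. Almost all hosts still had listed sites in the KO, 331 in library 1 and 332 in library 2. The exceptions were Mip, with none in either, and Gpx1, with none in library 1.

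The 20 hosts with several members held 42 of them, at gaps of 78 bases in Mfsd5 to 3000 bases in Fbxo5. Members of 1 gene were not always alike in the KO: in 11 of these genes some members were in a KO list and others in none, in 8 none was listed, and in Atxn7l3b both were. Poglut1 encodes an O-glucosyltransferase that modifies Notch receptors. Its 3 members span 565 bases near the 3′ end, at positions 38346118, 38346399 and 38346683 of chromosome 16, minus strand. The first was at 1 and 1 in the wild-type libraries and at 0.236 in KO library 2, and the last was at 1 and 1 and then 0.203 and 0.222. The middle one had 0.982 and 0.949 at 222 and 257 reads and was in neither KO list, although it had the highest expected coverage of the 3, 179 and 140 reads. In Sox3 a second member, 188 bases from the first and at 0.981 and 1, was listed in KO library 1 at 0.106 from 529 reads.

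Sites that entered only through the limit of 0.9 show how continuous the scale is. The 3 members with the smallest lower level were Mdm2 (0.911 and 0.9), Prtg (0.910 and 0.9) and Gtse1 (0.901 and 0.913). Just outside were Ric8a (0.951 and 0.8995), Mapk1ip1l (0.899 and 0.914) and another site of Mfsd5 at position 102189617 (0.899 and 0.928). None of these 6 was in a KO list.

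Genes of the m6A machinery held 2 members, against 13 shared sites of that coverage in the writers, 59 in the readers and 4 in the erasers. Of the 12 writer genes examined, Rbm15, whose protein guides the METTL3 complex to its targets, held the 1 member. At position 107233571 of chromosome 3, minus strand, 834 bases from the 3′ end, every read was unconverted in the wild type, 66 and 72 of them. Neither KO list held it, with 90.2 and 94.7 reads expected. Alkbh5, which removes m6A, held 1 member, at position 60445261 of chromosome 11, with 0.971 and 1 at 68 and 138 reads and no KO entry where 89.8 and 77.7 reads were expected. The 12 reader genes held none.

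Among 21 eye field and early neural genes 3 held 4 members. These were both Sox3 sites, the Zic2 site and 1 in Sfrp1, which encodes a secreted inhibitor of Wnt ligands. The Sfrp1 site, at position 23936516 of chromosome 8, had 0.959 and 0.977 at 122 and 129 reads, with 53.5 and 46.4 expected in the KO and no entry. Of 30 Wnt pathway genes 2 held members, both of them receptors: Fzd2 with 1 and Fzd7 with 3. The Fzd7 sites, on chromosome 1 at 59522015, 59523074 and 59523905, had levels of 0.940 and 0.942, 1 and 1, and 0.946 and 0.948. KO library 1 listed the first at 0.217 and the second at 0.110, KO library 2 listed none, and the third was in neither. Of 13 Notch pathway genes Hes5, a transcriptional repressor induced by Notch, held 1 member, with levels of 1 and 1 at 129 and 79 reads and no KO entry at 157 and 168 expected reads. The 18 pluripotency and epiblast genes and 6 reference genes held none.

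Gene coverage was compared between genotypes by limma over 8294 genes with a value in all libraries. The rule did not use this value itself. It did ask for at least 50 reads at the site in the wild type and set no such minimum in the KO. The hosts were thus partly chosen by wild-type coverage, which can favour genes that are lower in the KO. It could be tested for 305 host genes, which hold 326 members. A host with no listed site in a KO library has no value there and could not enter. As background 2.64% of all genes were higher in the KO and 3.09% lower at an adjusted p under 0.05 (5.73% in either direction). Of the 305 hosts 15 were higher (4.92%) and 18 lower (5.90%), 10.8% in all. Among the 4565 tested genes with a well covered shared site, 1.88% were higher and 4.4% lower (6.29% in either direction), a background added after the data were seen. These genes passed the same wild-type coverage minimum. The median log2 change over the hosts was 0.01 (quartiles -0.21 to 0.28), against -0.02 over all genes, and 297 of 305 lay within 1 log2 unit. The KO libraries did not overlap the wild type in 101 hosts that were higher (33.1%, background 24.7) and 95 that were lower (31.1%, background 29.4). These counts lean on each library. Without wild-type library 1 the calls were 11 higher and 15 lower, and without wild-type library 2 they were 6 and 9. Without either KO library 3 lower hosts were left, Fezf1, Efnb2 and Lpar6. With no centring of the libraries, which shifts the median of all genes to -0.13, the split was 6 higher and 19 lower.

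**Figure D5:**
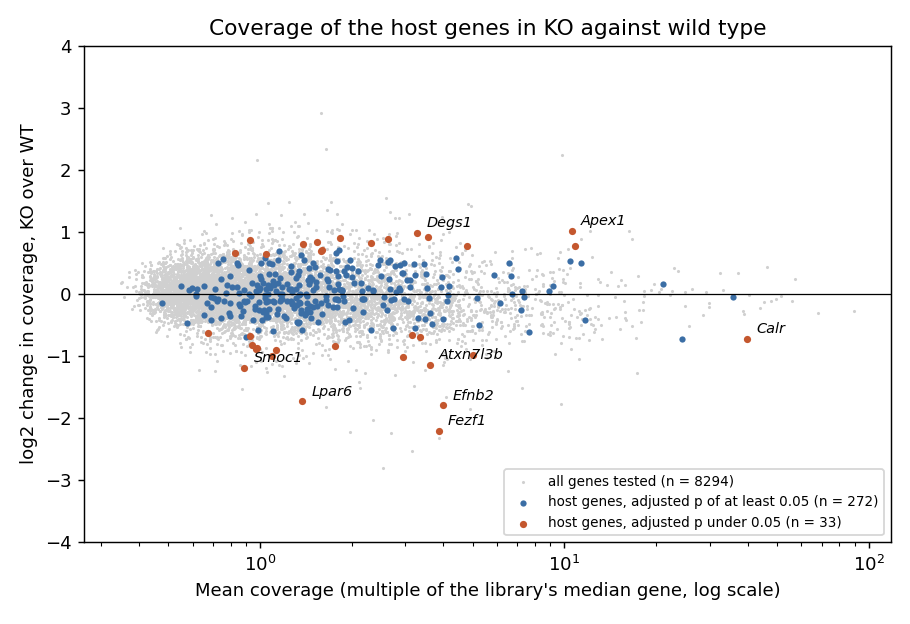
log2 change of gene coverage (KO over wild type) against mean coverage in multiples of the library's median gene (log axis), for all 8294 genes (grey), hosts that did not pass (blue) and the 33 hosts with a limma adjusted p under 0.05 (orange). The hosts' median is 0.01 and 297 of the 305 lie within 1 log2 unit of 0, with Fezf1, Efnb2 and Lpar6 lowest at -2.20, -1.79 and -1.73 and Apex1 highest at 1.03.

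The hosts that fell most were Fezf1, Efnb2 and Lpar6. Fezf1, a forebrain transcription factor gene, had a coverage of 6.58 and 6.12 times the median gene in wild-type organoids, against 1.31 and 1.45 times in KO organoids (log2 change -2.20 ± 0.17, SE; limma adjusted p 3.08e-05). Its member, with 0.948 and 0.926, was in neither KO list, and 101 and 96.9 reads were still expected. Efnb2, the ligand ephrin-B2, had 5.84 and 6.58 against 1.70 and 1.87 (-1.79 ± 0.17; limma adjusted p 0.000196). Its member at position 8670225 of chromosome 8 had 0.995 and 0.933 at 2348 and 2944 reads and was in neither KO list at 709 and 678 expected reads. Lpar6 had 2.10 and 2.13 against 0.671 and 0.604 (-1.73 ± 0.16; limma adjusted p 0.000212). In all 3 genes both KO libraries lay well below both wild-type libraries. In such bulk tissue, fewer cells that express a gene and less of its RNA per cell cannot be told apart.

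Smoc1, a secreted matrix protein of eye development, fell by 1.18 on the log2 scale, Atxn7l3b by 1.14 and Sfrp1 by 0.99 (limma adjusted p 0.00396, 0.00571 and 0.0101). Calr fell by 0.72, from 46.9 and 52.2 times the median gene to 28.1 and 32.2 times (limma adjusted p 0.0330). The 5 hosts that rose most were Apex1 (7.46 and 6.40 against 16.5 and 11.97; log2 change 1.03 ± 0.19, limma adjusted p 0.0133), Degs1, a ceramide desaturase gene (0.99), Mfsd5, a transporter gene (0.91), Riox1, an oxygenase gene (0.90), and Hes5 (0.89 ± 0.23, limma adjusted p 0.0462). For Hes5 the change was 0.53 without wild-type library 2 (limma adjusted p 0.347), and taking the highest value of genes with several also ended the call (0.0608). Hes5 was at 2.33 and 1.42 times the median gene in wild-type libraries, against 3.04 and 3.73 times in KO libraries.

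Members in hosts that fell and in hosts that rose were absent from the KO lists about as often, with no test made. Of the 19 members in hosts that fell, 14 were in neither KO list (73.7%), and of the 16 in hosts that rose, 12 (75%). In hosts not called the share was 190 of 291 (65.3%). Hosts of the listed pathways mostly missed the threshold: the log2 change was 0.56 ± 0.17 in Rbm15 (limma adjusted p 0.0793), 0.40 in Fzd2, 0.31 in Zic2, 0.24 in Alkbh5, 0.07 in Fzd7 and 0.05 in Sox3, and the last 2 change sign without centring.

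Over all 8294 genes limma called 2.64% higher and 3.09% lower. Over the whole lists, limma called 2 higher and 5 lower of 13 tested genes of the eye field list, and 4 lower of the 10 pluripotency genes. It called 2 higher and 3 lower of 22 Wnt genes, 2 higher and 1 lower of 12 Notch genes, and 3 higher of 11 readers (Ythdf1, Ythdf2 and Ythdc1). It called none of the 11 writers (3 higher at an unadjusted p under 0.05, and none by limma-trend), none of the 2 erasers (none unadjusted, none by limma-trend) and none of the 4 reference genes (1 lower unadjusted, none by limma-trend).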

How the data were processed

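Groups came from the titles. Each library has 1 list of sites, deposited by the authors, with counts of reads with A or G and with A, the fraction of unconverted reads, p-values, and the coverage signal and conversion fraction of the gene, per the file headers. The p-values were not used. The conversion fraction was read together with the coverage signal to find values shared along a whole chromosome. Its median over host genes was 95.1% (wild-type library 1), 95.2% (wild-type library 2), 97.1% (KO library 1) and 96.5% (KO library 2). Over all genes, in the same order, it was 96.1%, 96.2%, 97.2% and 96.6%. Whether this difference between genotypes changed the levels was not tested. The submitters' processing notes name mm10, but 23.4% of 3160 sites in GRCm38 promoter windows were an A there, so coordinates are given as deposited. No genome sequence of that build was used here. Sites were joined by chromosome, position and strand, and placed in the same-strand feature around them. Gene coverage signal, log2-transformed and centred on each library's median gene, was tested with limma 3.58.1 (lmFit and eBayes) in R 4.3.3 with Benjamini-Hochberg adjustment. On simulated data for 8294 genes this recovered 37 of 100 genes changed by 1 log2 unit and 84 of 100 changed by 2, with 2 of 123 calls false. Same-numbered libraries did not deviate together (correlation -0.028), so the main test has no block.

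Members, gene lists, tests and alternatives were chosen with earlier results of these data known. Named were hosts with 3 members, the 8 absent members with most expected KO coverage, members in both KO lists with the 5 highest levels and the 5 highest coverages, members in listed genes, the 5 hosts that changed most in each direction, 3 sites on each side of the level limit, and Mettl3.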

Additional observations from a re-analysis of the deposited data

How the results depend on the processing

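The number of members followed the limits: 584 at a coverage of 30, 200 at 100 and 208 at a wild-type level of 0.95. Leaving out 1 library gave 379 to 1694 members, the larger counts where 1 wild-type library alone sets the level (1694 and 1088). The share in neither KO list was 80.5% without wild-type library 1 and 74.7% without wild-type library 2. Without a KO library only absence from the 1 list left can be counted, which is a different measure. It was 82.6% without KO library 1 and 80.8% without KO library 2. The share in neither KO list was 63.0% to 71.3% under all other limits tried. The share within 1000 bases of the 3′ end was 23.7% to 36.3% without 1 library, 30.9% with the feature deposited with the site, and 19.7% and 59.7% at 500 and 2000 bases. In limma, hosts higher in gene coverage numbered 6 with no centring and 0 to 11 without 1 library, and lower hosts 3 to 15. Where no host was higher, without KO library 1 or 2, 35 and 52 were higher at an unadjusted p under 0.05 in limma. The median log2 change over hosts was -0.10 with no centring and -0.03 to 0.07 without 1 library. The replicate block gave 17 higher and 20 lower hosts and 286 and 299 of all genes, so it ended none of the 33 calls. All 33 kept their sign under every alternative, but they were called in these same libraries, so this is no independent check. The block and limma-trend leave the log2 change as it was, so the sign could not differ there. With no centring Sox3 reversed to -0.058 and Fzd7 to -0.045. Without 1 library Sox3 ran from -0.0085 to 0.115 and Fzd7 from -0.092 to 0.22. The motif context of the sites was not run, since no genome of the build was used here. Depth limits absent members: 43 of 216 had fewer than 50 expected reads in a KO library.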
